A study of Bos taurus with 4 samples.

Results

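The genes described here are 10 genes of ion transport in the gut epithelium and of the guanylin pathway that controls it, chosen by name: CFTR, SLC26A3, SLC26A6, SLC9A3, SLC12A2, SLC4A4, SLC13A1, GUCY2C, GUCA2A and GUCA2B. Each name is a gene symbol in the deposited counts and has 1 row there, so 10 of the 29792 rows were used. The material came from Hanwoo cattle more than 24 months old and consisted of 4 libraries: whole small intestine, muscle, and intestinal organoids at passage 5 (P5) and at passage 10 (P10). Organoids are small hollow epithelial structures, grown here from crypts of the jejunum in Matrigel, a basement membrane gel, with IntestiCult medium, a commercial growth medium for human intestinal organoids. The intestine library holds RNA of all layers and cells of the tissue piece, whereas the organoids were grown from crypt epithelium, and whether the libraries share an animal is not given in the sources used here. Each condition has 1 library, so differences could not be checked against replicates and p-values are left out. The 95% intervals cover counting error only, and they may be too narrow even for that, because PCR copies are not independent molecules.

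The intestinal epithelium moves water by moving salt. In secretion, the cotransporter SLC12A2 (NKCC1) loads chloride into the cell from the blood side and the channel CFTR releases it into the lumen. In absorption, the exchanger SLC9A3 (NHE3) takes up sodium at the brush border while SLC26A3 (DRA) and SLC26A6 (PAT1) take up chloride in exchange for bicarbonate. Guanylin (GUCA2A) and uroguanylin (GUCA2B) are small peptides that the epithelium releases into the lumen. They bind the receptor guanylate cyclase C (GUCY2C), which raises cyclic GMP, opens CFTR and slows SLC9A3.

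The intestine library held 17776273 reads and the muscle library 12917720, and the organoid libraries held 13599831 (P5) and 17730571 (P10). Levels are given as reads and as CPM, reads scaled to a common library total. The assay counts 3′ ends, so a read count has no factor for gene length. A count of 3 reads or fewer was taken as the floor, which lies between 0.169 and 0.232 CPM. Differences between libraries are on the log2 scale of quantile-normalised counts with 1 added. A gene was counted as higher or lower when the difference was at least 2-fold and the higher library had at least 10 reads. The markers fit the labels: 8 of 8 skeletal muscle genes were over the floor in muscle, at a summed 49051 CPM, against 2 or 3 of 8 and at most 3.66 CPM in the other libraries, and 10 of 10 epithelial genes were over the floor in intestine and in both organoid libraries. Markers of other cells were plentiful in intestine, with summed levels of 6282 CPM for 7 immune genes, 1875 CPM for 6 smooth muscle genes and 1180 CPM for 7 stroma genes. In the organoids the same sums lay between 0.282 and 54.0 CPM. The sum of 6 enteric neuron and glia genes was 36.8 CPM in intestine, 6.54 CPM at P5 and 32.1 CPM at P10, where UCHL1 took 559 of 569 reads and SOX10 was at 0. In such bulk RNA, fewer cells of a type and less RNA per cell cannot be told apart.

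**Figure D1:**
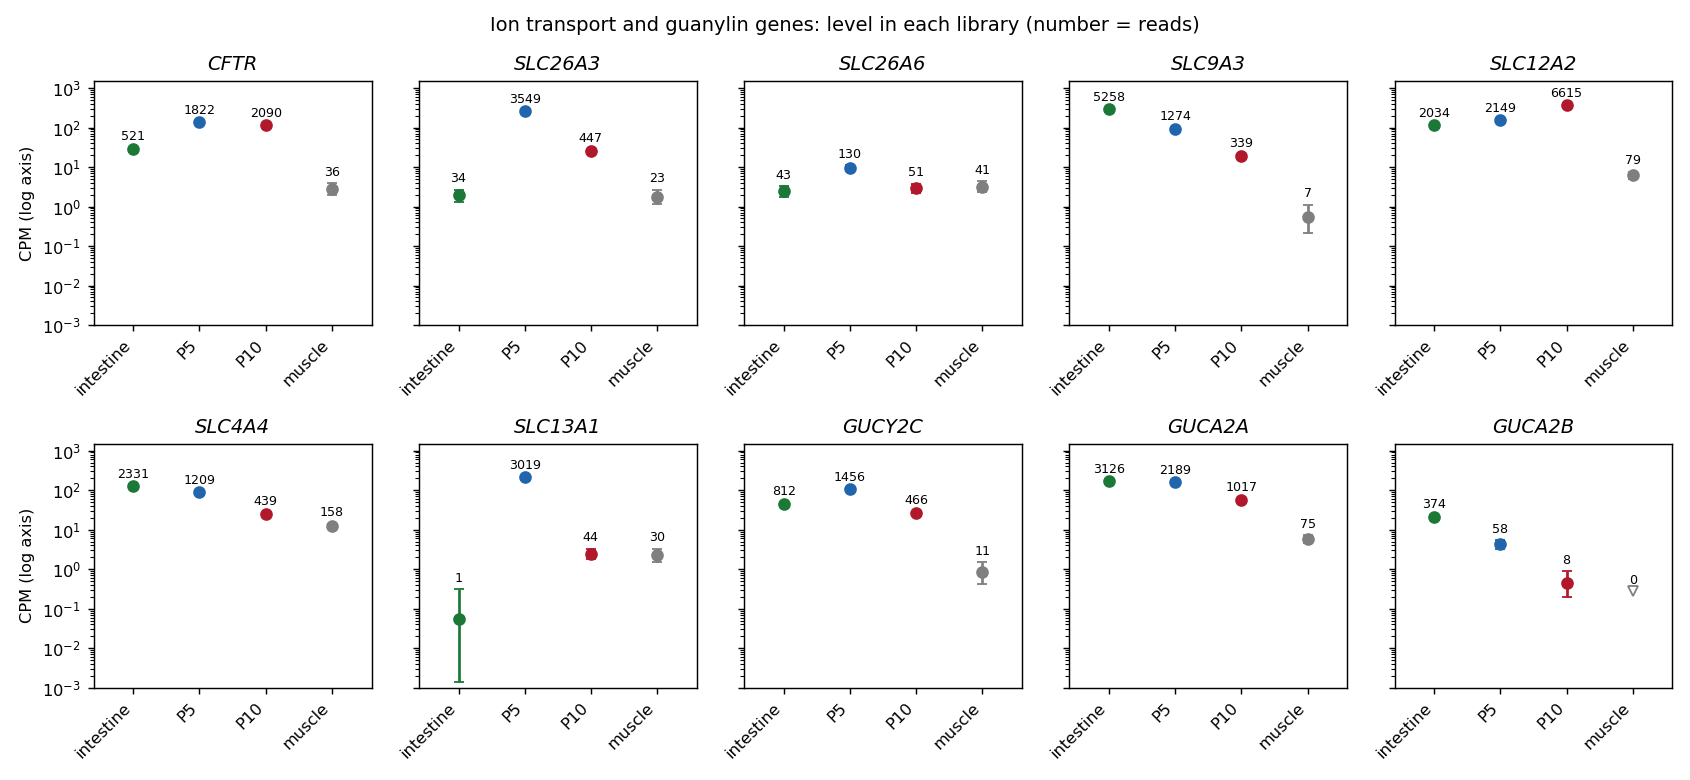
CPM on a log axis of each gene in the intestine, P5 organoid, P10 organoid and muscle library, with 95% Poisson intervals and the number of reads above each point; the open triangle is the upper limit for 0 reads. CFTR, SLC26A3, SLC26A6, SLC13A1 and GUCY2C peak at P5, SLC12A2 at P10, and SLC9A3, SLC4A4, GUCA2A and GUCA2B in intestine.

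The genes of chloride secretion were all well counted in the organoids. CFTR was higher in both organoid libraries than in intestine, though not per epithelial read (-0.18 at P5 and -0.29 at P10 on the log2 scale, where the medians of all rows were -2.27 and -2.16), and SLC12A2 was highest at P10. CFTR had 521 reads in intestine, 1822 at P5, 2090 at P10 and 36 in muscle. These counts are 29.3 CPM in intestine (interval 26.8 to 31.9), 134 CPM at P5 (128 to 140) and 118 CPM at P10 (113 to 123), so the organoid libraries stood close together and well above the tissue. The log2 difference from intestine was 2.01 at P5 (1.87 to 2.17) and 1.80 at P10 (1.65 to 1.95), and P10 lay below P5 by a small amount (-0.21, -0.31 to -0.12).

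SLC12A2 had 2034 reads in intestine, 2149 at P5, 6615 at P10 and 79 in muscle. Its level was 114 CPM in intestine, 158 CPM at P5 and 373 CPM at P10 (364 to 382), an order in which no neighbours had overlapping intervals. P5 organoids were within 2-fold of intestine (log2 difference 0.24, 0.16 to 0.34). P10 organoids were higher than intestine (1.53, 1.45 to 1.61) and higher than P5 organoids (1.28, 1.20 to 1.36). It was the only one of the 10 genes counted as higher at P10 than at P5.

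SLC4A4 encodes NBCe1, which brings sodium and bicarbonate into the cell from the blood side and so supplies bicarbonate for secretion. It went the other way, with 2331 reads in intestine, 1209 at P5, 439 at P10 and 158 in muscle. The levels were 131, 88.9, 24.8 and 12.2 CPM in that order, each apart from its neighbour. P5 organoids were within 2-fold of intestine (log2 difference -0.80, -0.90 to -0.69), and P10 organoids were lower than intestine (-2.73, -2.88 to -2.58) and lower than P5 organoids (-1.94, -2.10 to -1.77).

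The absorptive exchangers did not move as a group. SLC9A3, the brush border sodium exchanger, was highest in intestine, whereas the anion exchanger SLC26A3 was low in intestine and abundant at P5. SLC9A3 had 5258 reads in intestine, 1274 at P5, 339 at P10 and 7 in muscle. Its level went from 296 CPM in intestine (288 to 304) to 93.7 CPM at P5 (88.6 to 99.0) and 19.1 CPM at P10 (17.1 to 21.3). The log2 difference from intestine was -1.93 at P5 (-2.02 to -1.84) and -4.30 at P10 (-4.45 to -4.15), and the passages differed by -2.37 (-2.54 to -2.20).

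SLC26A3 had 34 reads in intestine, 3549 at P5, 447 at P10 and 23 in muscle. In intestine it stood at 1.91 CPM (1.32 to 2.67), which overlapped the 1.78 CPM of muscle (1.13 to 2.67). In P5 organoids it reached 261 CPM (252 to 270), which was 136-fold the level in intestine (97.5 to 197). At P10 the level was 25.2 CPM (22.9 to 27.7), or 13.2-fold that of intestine (9.29 to 19.3). The log2 differences were 7.57 for P5 organoids against intestine (7.06 to 8.13), 4.05 for P10 organoids against intestine (3.52 to 4.63) and -3.52 between the passages (-3.67 to -3.37). SLC26A6, the related exchanger, stayed low in every library, with 43 reads in intestine, 130 at P5, 51 at P10 and 41 in muscle. P5 organoids stood apart at 9.56 CPM (7.99 to 11.4), and the other libraries lay between 2.42 and 3.17 CPM, each overlapping its neighbour. The log2 difference was 2.47 for P5 against intestine (1.97 to 3.03) and -1.51 between the passages (-1.90 to -1.11).

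SLC13A1 encodes the sodium-sulfate cotransporter NaS1, which takes up inorganic sulfate at the brush border. It was abundant at P5 and low elsewhere, with 3019 reads at P5, 44 at P10, 30 in muscle and 1 in intestine. P5 organoids held 222 CPM (214 to 230), P10 organoids 2.48 CPM (1.80 to 3.33) and muscle 2.32 CPM (1.57 to 3.32), so P10 organoids and muscle overlapped. With 1 read in intestine the ratio to intestine was poorly fixed, at 3946 per library total for P5 (708 to 155914) and 44.1 for P10 (7.52 to 1781). Between the passages the log2 difference was -6.11 (-6.48 to -5.78), the widest gap of the 10 genes.

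Guanylin and its receptor were present in intestine and at both passages, while uroguanylin was scarce in the organoids. GUCA2A had 3126 reads in intestine, 2189 at P5, 1017 at P10 and 75 in muscle. It was at nearly the same level in intestine (176 CPM, 170 to 182) and at P5 (161 CPM, 154 to 168), with a log2 difference of -0.37 (-0.46 to -0.30). P10 organoids held 57.4 CPM (53.9 to 61.0) and were lower than intestine (-1.97, -2.07 to -1.86) and lower than P5 organoids (-1.59, -1.69 to -1.48).

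GUCA2B lies next to GUCA2A in the RefSeq annotation of the cattle assembly ARS-UCD2.0. It had 374 reads in intestine, 58 at P5, 8 at P10 and 0 in muscle, which allows up to 0.232 CPM there. The levels were 21.0 CPM in intestine (19.0 to 23.3), 4.26 CPM at P5 (3.24 to 5.51) and 0.451 CPM at P10 (0.195 to 0.889). The log2 difference from intestine was -2.22 at P5 (-2.60 to -1.87) and -4.69 at P10 (-5.35 to -3.99), so the peptide genes did not keep pace with each other. Per library total GUCA2B was 46.6-fold lower at P10 than in intestine (23.4 to 109), a larger gap than on the quantile-normalised scale.

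The receptor gene GUCY2C had 812 reads in intestine, 1456 at P5, 466 at P10 and 11 in muscle. It was higher at P5 (107 CPM, 102 to 113) than in intestine (45.7 CPM, 42.6 to 48.9) and lower at P10 (26.3 CPM, 23.9 to 28.8). The log2 difference from intestine was 1.02 at P5 (0.89 to 1.14) and -1.09 at P10 (-1.27 to -0.92). The second value was past 2-fold with TMM and upper-quartile normalisation too, but per library total GUCY2C was 1.74-fold lower at P10 than in intestine (1.55 to 1.95).

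**Figure D2:**
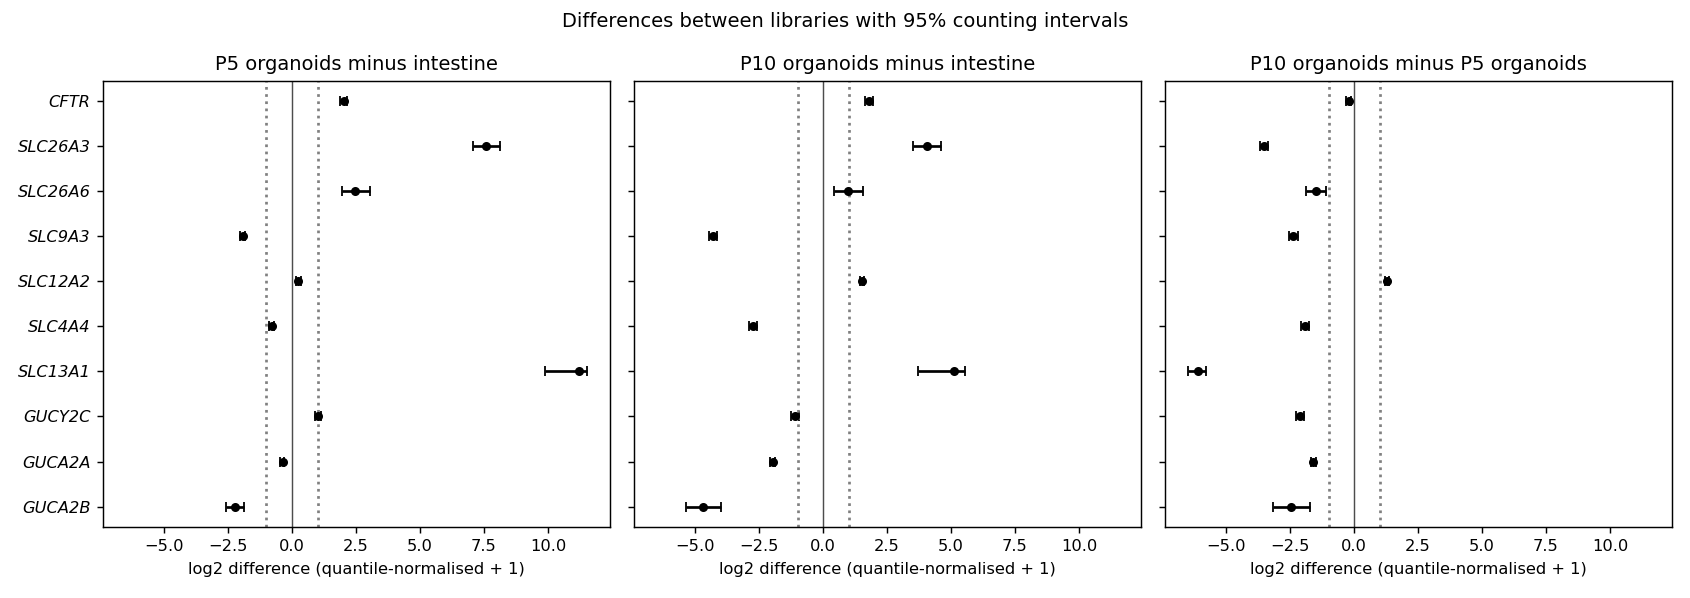
Log2 differences of the 10 genes between P5 organoids and intestine, P10 organoids and intestine, and P10 and P5 organoids, with 95% counting intervals; dotted lines mark 2-fold, and SLC13A1 rests on 1 read in intestine. In the last panel, 8 of the 10 genes lie left of the lower dotted line and SLC12A2 lies right of the upper one.

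Against intestine, 5 of the 10 genes were higher at P5 (CFTR, SLC26A3, SLC26A6, SLC13A1 and GUCY2C) and 2 were lower (SLC9A3 and GUCA2B). Of all 17783 rows with at least 10 reads in either library, 24.9% were higher and 22.8% lower. In P10 organoids 4 genes were higher than in intestine (CFTR, SLC26A3, SLC12A2 and SLC13A1) and 5 lower (SLC9A3, SLC4A4, GUCY2C, GUCA2A and GUCA2B), beside 28.0% and 26.1% of all rows. These comparisons share the intestine library. The median log2 difference of the 10 genes was 0.63 at P5 and -0.06 at P10, and that of all rows was 0.11 in both. Of all rows past 2-fold, 52.3% were higher at P5 than in intestine and 51.7% at P10, and these shares became 40.5% and 41.0% with TMM normalisation. The calls of the 10 genes were the same under TMM.

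Since intestine holds other tissue layers, the same counts were also set against epithelial RNA. The 10 epithelial genes (EPCAM, CDH1, KRT8, KRT18, KRT19, VIL1, CDX2, LGALS4, CLDN7 and ELF3) summed to 2154 CPM in intestine, 11182 CPM at P5 and 10590 CPM at P10, mostly from KRT8, KRT18 and KRT19. Per 1000 of these reads, CFTR had 13.6 reads in intestine, 12.0 at P5 and 11.1 at P10, so on this scale its direction against intestine turned. GUCY2C had 21.2 reads in intestine, 9.57 at P5 and 2.48 at P10, also the other way for P5. SLC12A2 turned at P10 (35.2 reads, against 53.1 in intestine). SLC26A6 at P5 (0.855 reads, against 1.12) turned by less than its counting error, with a ratio of 0.761 (0.536 to 1.10). SLC26A3 remained higher in the organoids, at 23.3 reads in P5 and 2.38 in P10 against 0.888 in intestine. GUCA2A was lower on this scale in both, with 81.6 reads in intestine, 14.4 at P5 and 5.42 at P10. On this scale 2 genes were at least 2-fold higher and 6 at least 2-fold lower at P5 than in intestine, but the scale moved nearly every gene the same way: the median of all rows stood at -2.27 at P5 and -2.16 at P10, and 4.83% and 6.43% of the rows past 2-fold were higher.

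The epithelial genes themselves did not share a single ratio, so this scale depends on which of them is used. Their CPM ratios of P5 organoids to intestine ran from 2.08 for VIL1, a microvillus protein gene, to 65.0 for CDX2, an intestinal transcription factor gene, with a median of 5.66. The CDX2 ratio rests on 4 reads in intestine and is poorly fixed, and the next highest was 12.3 for KRT18. In P5 organoids the ratios of SLC26A3 and SLC13A1 were larger than those of all 10 epithelial genes, with this limit for CDX2. SLC9A3, SLC12A2, SLC4A4, GUCA2A and GUCA2B had smaller ratios than all 10, and CFTR (4.57), SLC26A6 (3.95) and GUCY2C (2.34) lay among them. In P10 organoids the epithelial ratios ran from 1.20 for VIL1 to 40.5 for KRT18. CFTR (4.02), SLC12A2 (3.26) and SLC26A3 (13.2) lay among them, and SLC9A3, SLC4A4, GUCY2C, GUCA2A and GUCA2B lay below all 10. SLC26A6 (1.19, 0.777 to 1.83) could not be told apart from VIL1. SLC13A1 (44.1, 7.52 to 1781) could not be placed, with 1 read in intestine.

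**Figure D3:**
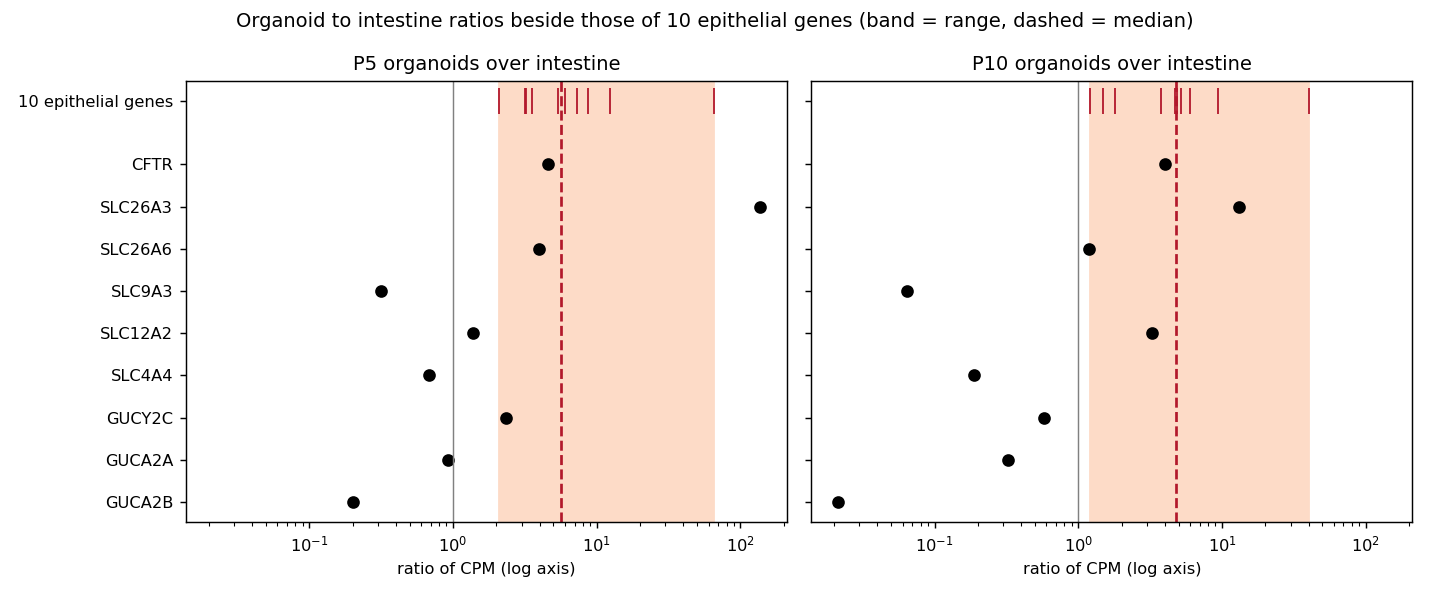
Ratios of CPM in organoids to CPM in intestine on a log axis for 9 of the 10 genes (SLC13A1 is left out, with 1 read in intestine), beside the 10 epithelial genes as ticks; the band is their range and the dashed line their median. SLC26A3 lies right of the band at P5, where the upper edge is CDX2 with 4 reads in intestine. CFTR lies inside the band at both passages, and SLC9A3, SLC4A4, GUCA2A and GUCA2B left of it at both.

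The comparison of the passages involves organoids alone, and there the epithelial sums were close, although CPM ratios of the 10 epithelial genes ran from 0.0925 for CDX2 to 3.28 for KRT18, with a median of 0.731. P10 organoids were lower than P5 organoids in 8 of the 10 genes, higher in SLC12A2 and within 2-fold in CFTR. Of all 16131 rows, 16.6% were lower and 16.1% higher. The median log2 difference was -2.02 over the 10 genes and 0.06 over all rows. The lower genes ranged from SLC26A6 (3.32-fold lower per library total, 2.39 to 4.69) and GUCA2A (2.81-fold, 2.60 to 3.03) to SLC26A3 (10.4-fold, 9.38 to 11.4) and SLC13A1 (89.5-fold, 66.5 to 123). Each of these calls held with library totals, with and without the RN18S1 row, and with TMM and upper-quartile normalisation. Summed enterocyte markers were lower at P10 too, and summed markers of dividing cells were higher. The summed level of 15 enterocyte genes was 5177 CPM at P5 and 405 CPM at P10, with 13 and 9 of the 15 over the floor, and APOA1, APOA4, ALPI and SLC2A2 at 0 in P10. The sum of 15 proliferation genes was 966 CPM in P5 and 1817 CPM in P10, and that of 7 crypt stem cell genes 867 and 3249 CPM, of which OLFM4 and SMOC2 took most, while LGR5 went from 34 to 9 reads. The sum of 7 goblet cell genes was 1753 and 1321 CPM. Of the 5 genes of BEST4-positive cells, a class of absorptive cells, 3 were lower at P10 and 0 higher: BEST4 had 106 reads at P5 and 15 at P10, CA7 71 and 1, and SPIB 128 and 43. HES4 had 658 and 748 reads and OTOP2 was at 0 in every library. The part of these cell classes in the differences of the 10 genes was not tested, and with 1 library for each passage, passage and variation between cultures cannot be told apart.

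Ratios of 2 genes in the same library need no scaling between libraries, and they set the transporters of absorption and secretion side by side. For every CFTR read there were 10.1 SLC9A3 reads in intestine (9.22 to 11.1), 0.699 at P5 (0.650 to 0.752) and 0.162 at P10 (0.144 to 0.182). Reads of the sodium exchanger were thus the more numerous in the tissue and those of the chloride channel in both organoid libraries. SLC26A3 had 0.0653 reads per CFTR read in intestine (0.0447 to 0.0924), 1.95 at P5 (1.84 to 2.06) and 0.214 at P10 (0.193 to 0.237). It was therefore at P5 alone that SLC26A3 reads exceeded those of CFTR.

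Within the secretory pair, CFTR reads per SLC12A2 read were 0.256 in intestine (0.232 to 0.282), 0.848 at P5 (0.796 to 0.903) and 0.316 at P10 (0.301 to 0.332). Within the anion exchangers, SLC26A3 and SLC26A6 were alike in intestine (0.791 reads per read, 0.489 to 1.27) and far apart at P5 (27.3, 22.9 to 32.8) and at P10 (8.76, 6.55 to 12.0). Uroguanylin was lowest relative to guanylin at P10: GUCA2B reads per GUCA2A read were 0.120 in intestine (0.107 to 0.133), 0.0265 at P5 (0.0201 to 0.0344) and 0.00787 at P10 (0.00339 to 0.0156). The receptor stood higher relative to its ligand at both passages, where GUCY2C reads per GUCA2A read were 0.260 in intestine (0.240 to 0.281), 0.665 at P5 (0.622 to 0.711) and 0.458 at P10 (0.410 to 0.512). A ratio compares libraries and not the absolute amounts of 2 transcripts, whose 3′ ends may be captured and aligned with unequal success.

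**Figure D4:**
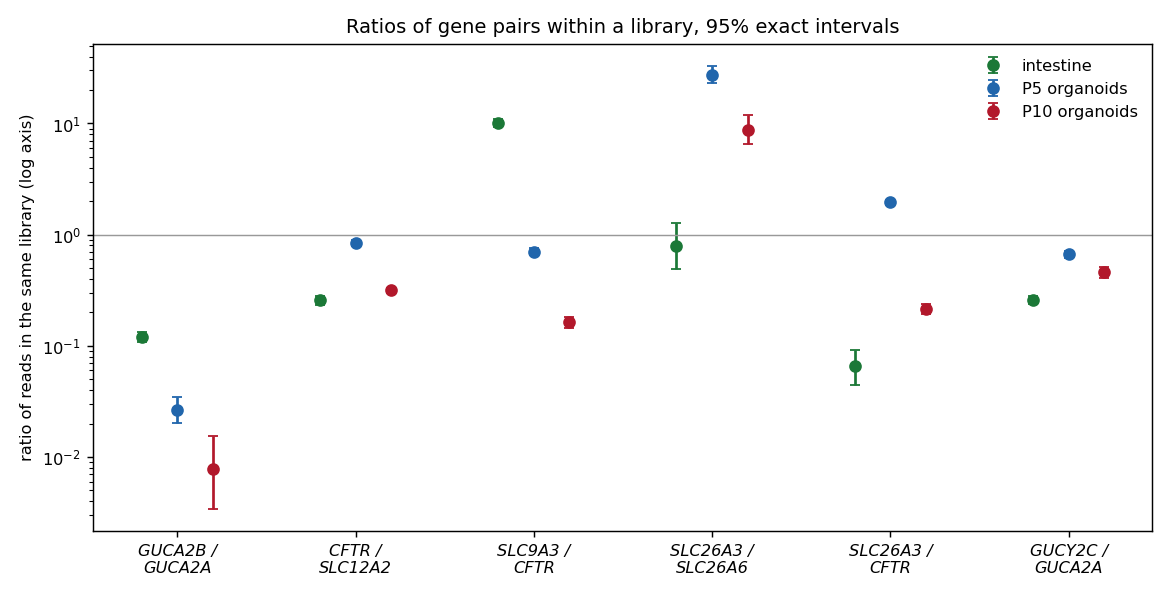
Ratio of the reads of 2 genes within the same library on a log axis, for intestine, P5 organoids and P10 organoids, with 95% exact intervals. GUCA2B to GUCA2A and SLC9A3 to CFTR step down from intestine to P5 and P10, and SLC26A3 to CFTR lies above 1 at P5 alone.

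Other genes of salt and water transport were counted in lists by role, without the 10 genes above and over rows with at least 10 reads in any library. Of 8 further genes in the chloride and bicarbonate list, not all of them transporters, 6 were lower and 0 higher at P10 than at P5, beside the 16.6% and 16.1% of all rows. CLCA1, a protein secreted with goblet cell mucus, had 8900 reads in intestine, 1366 at P5 and 78 at P10, a passage difference of -4.31 (-4.60 to -4.03). SLC26A2, a sulfate exchanger, was also lower at P10 (-1.45, -1.57 to -1.34). Against intestine, 1 of the 8 was higher (2 with library totals) and 2 were lower at P5, beside 24.9% and 22.8% of all rows. At P10, 0 were higher and 4 lower (28.0% and 26.1%).

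The cyclic GMP pathway past the receptor showed a like pattern between the passages. Of its 4 further genes, 3 were lower at P10 than at P5 (2 with library totals) and 0 higher, beside 16.6% and 16.1% of all rows. PRKG2, the kinase that acts on CFTR below cyclic GMP, had 1300 reads in intestine, 1850 at P5 and 434 at P10, with a passage difference of -2.58 (-2.73 to -2.42). PRKG1, the related kinase best known from smooth muscle, had 9811 reads in intestine, 4089 at P5 and 7862 at P10, where its passage difference was 0.60 (0.55 to 0.65).

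Of 8 further genes of sodium absorption, 3 were lower and 1 higher (0 with TMM) at P10 than at P5, beside 16.6% and 16.1% of all rows. PDZK1, a scaffold of brush border transporters, had 971 reads in intestine, 2470 at P5 and 233 at P10, 3.85 log2 units apart between the passages in the same direction as SLC9A3 (-3.85, -4.03 to -3.69). SLC9A2, a further sodium exchanger, had 153 reads in intestine, 1152 at P5 and 224 at P10, and was higher at P5 than in intestine (3.33, 3.04 to 3.65), opposite to SLC9A3. SLC9A3R1, a scaffold that binds both SLC9A3 and CFTR, was within 2-fold in all 3 comparisons. Against intestine, 4 of the 8 were higher at P5 (3 with library totals or TMM) and 2 lower, beside 24.9% and 22.8% of all rows. At P10, 2 were higher (1 with TMM) and 4 lower, beside 28.0% and 26.1%.

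Of 10 further genes of basolateral entry and the sodium pump, 1 was higher (2 with library totals) and 3 were lower at P10 than at P5, beside 16.1% and 16.6% of all rows. ATP1B3, a beta subunit of the sodium pump, had 5434 reads in intestine, 4681 at P5 and 2496 at P10 (passage difference -1.37, -1.44 to -1.28), and ATP1B1, the related subunit, was within 2-fold (-0.86). The 1 higher gene was KCNQ1, a potassium channel named after its values were seen, with 557 reads at P5 and 2113 at P10 (1.51, 1.38 to 1.65). Against intestine, 3 of the 10 were higher in each organoid library, near the 24.9% and 28.0% of all rows, and 2 were lower at P5 and 4 at P10, beside 22.8% and 26.1%.

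Of 6 carbonic anhydrases, which supply bicarbonate and protons, 4 were lower and 1 higher at P10 than at P5, beside 16.6% and 16.1% of all rows. CA2 had 3481 reads in intestine, 88 at P5 and 0 at P10, where the floor of 3 reads is 0.169 CPM. CA12 went the other way against intestine, with 59 reads there, 1690 at P5 and 1227 at P10. CA13 had 313, 896 and 541 reads, and CA9, a hypoxia-responsive member, 1057, 610 and 2221. In P5 organoids 4 of the 6 were higher than in intestine and 1 lower (24.9% and 22.8% of all rows), and at P10 1 was higher (2 with library totals) and 2 lower (28.0% and 26.1%).

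Of 5 further genes of sulfate and phosphate transport, 2 were lower and 1 higher at P10 than at P5, beside 16.6% and 16.1% of all rows. In each organoid library 2 were higher than intestine (3 at P5 with library totals), beside 24.9% of all rows at P5 and 28.0% at P10. SLC20A1, a phosphate transporter, was higher than intestine at both P5 (1.35, 1.17 to 1.54) and P10 (1.56, 1.39 to 1.74), and SLC20A2 was within 2-fold at both (0.94 and 0.69). With library totals SLC20A2 was past 2-fold at P5 (1.13). SLC26A2, in this list too, did not follow SLC13A1 against intestine, with 1333 reads there and 1850 at P5. Both genes were lower at P10 than at P5. Of the 5 aquaporins, which are water channels, AQP4 had 1 read in intestine and 0 in organoids. Of the other 4, 3 were lower than intestine at P5 and 4 at P10, beside 22.8% and 26.1% of all rows. AQP1, also a gene of endothelium, had 3734 reads in intestine, 90 at P5 and 175 at P10, and AQP3 had 203, 7 and 0. AQP7 (176, 53 and 8) and AQP11 (445, 234 and 171) were lower at P10 than in intestine too.

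The 10 receptor and enzyme genes of cyclic AMP-stimulated secretion had the median nearest 0 of the 8 lists between the passages (0.07), with 2 higher and 0 lower, beside 16.1% and 16.6% of all rows. GNAS, the stimulatory G protein, lay at 0.06 (0.02 to 0.13) and WNK1, a kinase that regulates SLC12A2, at 0.07 (-0.09 to 0.21). PRKACA, the catalytic chain of protein kinase A, was higher than intestine in P5 (1.78, 1.64 to 1.92) and P10 organoids (2.06, 1.92 to 2.20). PTGER4, a prostaglandin receptor that immune cells also carry, was lower than intestine in both (-1.55 and -1.55). Of this list 3 were higher and 2 lower than intestine at P5 (24.9% and 22.8% of all rows), and 6 were higher and 1 lower at P10 (28.0% and 26.1%), where library totals gave 4 higher and TMM 2 higher. Set against epithelial reads, SLC9A2 at P5 (0.92) and CA12 at both passages (2.84 and 2.08) were above intestine, and SLC20A1 (-0.87 and -0.52) and PRKACA (-0.41 and -0.05) were below it, with the median of all rows at -2.27 and -2.16.

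**Figure D5:**
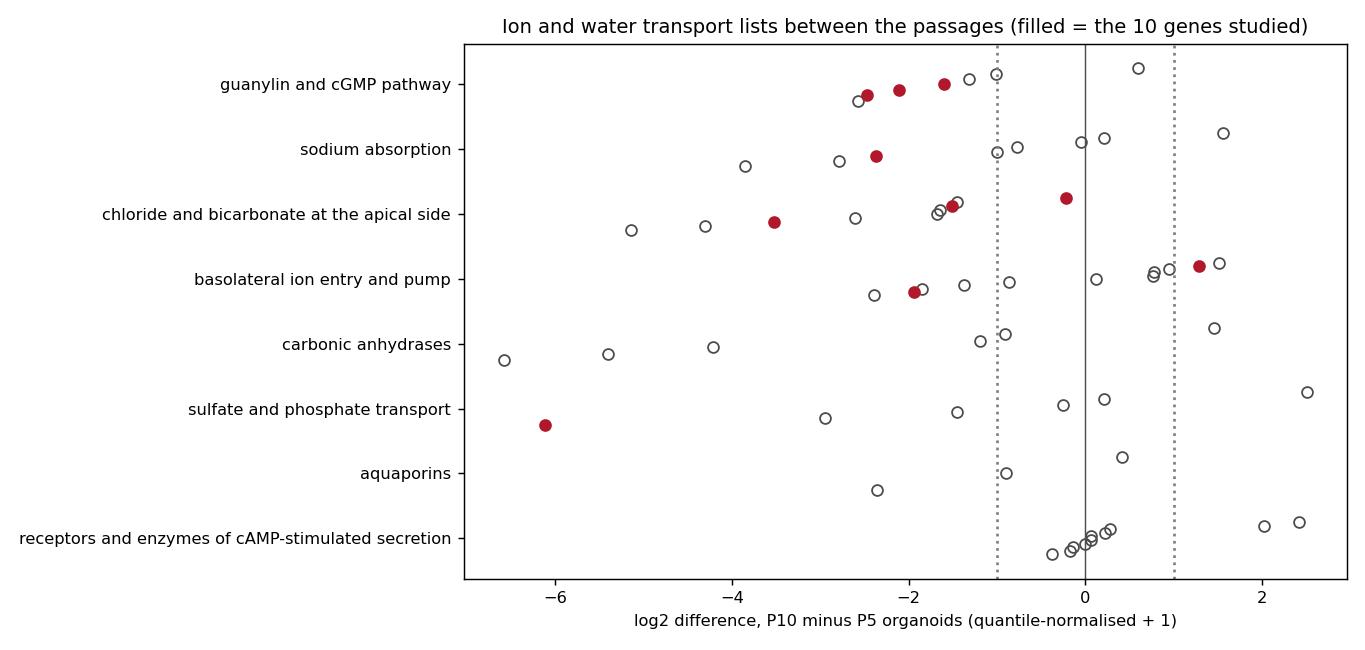
Log2 differences of P10 and P5 organoids for genes of 8 lists with at least 10 reads in either library; filled points are the 10 genes studied and dotted lines mark 2-fold. Genes of the chloride and bicarbonate list, not all of them transporters, lie to the left, and genes of cyclic AMP-stimulated secretion gather near 0.

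Muscle served as the tissue outside the gut. All 10 genes together took 460 reads there, or 35.6 CPM, against 818 CPM in intestine, 1239 CPM at P5 and 650 CPM at P10. Against muscle, 7 of the 10 genes were higher in intestine, 9 at P5 and 6 at P10, beside 32.3%, 33.5% and 35.2% of all rows. SLC9A3 stood out with 7 muscle reads against 5258 in intestine, a log2 difference of 8.15 (7.08 to 9.19). GUCA2B, with 0 reads in muscle, was at least 36.5-fold higher in intestine and at least 7.85-fold higher at P5. SLC4A4 had the most muscle reads of the 10 genes, at 12.2 CPM (10.4 to 14.3). Counted as lower than in muscle were SLC26A3, SLC26A6 and SLC13A1 in intestine and SLC26A6 at P10, beside 27.0% and 28.5% of all rows, and 0 genes at P5, beside 27.3%. Quantile normalisation gave low counts unequal values, since 1 read was worth 2.09 on the log2 scale in muscle and 0.32 in intestine. It was worth 2.09 at P10 and 0.81 at P5, so low counts in the organoid comparisons are affected too. With library totals the median of all rows in intestine against muscle was 1.23 higher, and SLC26A3 was level with muscle (0.10), as was SLC26A6 at P10 (0.906-fold, 0.589 to 1.40). Under that scaling 83.3% of the rows past 2-fold were higher in intestine, against 54.5% with quantile normalisation. The 10 epithelial genes held a summed 48.4 CPM in muscle, with KRT18, VIL1, CDX2, CLDN7 and ELF3 at 0. Their part in the muscle reads of the 10 genes was not tested. Muscle reads were 0.99% of the P5 reads for SLC13A1, 0.65% for SLC26A3 and 31.5% for SLC26A6. For 6 rows with at least 1000 reads at P5 and 3 or fewer in intestine, SLC13A1 among them, the median share was 0.62% (0% to 23.0%). Whether such reads come from RNA of muscle was not tested.

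Across all 4 libraries, the rows most like each gene were sought among 15050 others with at least 50 reads, by the distance of their centred log2 values. SLC9A3 and GUCA2B were each other's nearest row (distance 0.30), and TREH, the brush border trehalase, came second for both. GUCA2B and TREH each had 0 reads in muscle and 8 at P10, so these matches rest partly on the floor and on low counts. SLC12A2 was nearest to PROM1, a stem cell surface gene (0.06), and MCM3, a DNA replication gene (0.21). GUCY2C was nearest to ANKS4B, a microvillus gene (0.22), and LIPH (0.30), and CFTR to HAUS7 (0.21) and LOC112445594 (0.21). SLC13A1 had no close match: SLC6A19 and SLC7A9, both amino acid transporter genes, lay at 1.36 and 1.58. SLC26A3 was nearest to TMEM92 (1.15) and SLC34A2, a phosphate transporter gene (1.27). The remaining pairs were SYK (0.23) and LOC104969611 (0.29) for SLC4A4, S100A14 (0.12) and ANXA1 (0.27) for SLC26A6, and PRRG2 (0.18) and LOC783680 (0.18) for GUCA2A. With 4 libraries these distances describe likeness alone.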

How the data were processed

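QuantSeq 3′ mRNA-Seq libraries of 4 samples, 1 per condition, were analysed. The authors aligned single-end reads with Bowtie2 and counted unique and multiple alignments with Bedtools. They deposited whole-number counts per gene symbol, without normalisation. Genome build and annotation are not given in the sources used here, so no coordinates or sequences are printed. Where a gene has a near-identical copy, its count is uncertain.

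Following the named quantile normalisation, the 22200 of 29792 rows with a read were brought to 1 common distribution and log2(value + 1) was taken. Exact 95% Poisson bounds of each count were carried through the normalisation and combined by square-and-add. Ratios of counts have exact conditional bounds. No sample was tested against another. Alternatives were library totals with or without RN18S1 (0.264% to 23.6% of reads), edgeR's TMM and upper quartile, epithelial reads, pseudocounts of 0.1 and 5, 2 other row filters and rows summed by symbol. The step was tested on simulated data and against limma.

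The 10 genes and all lists were chosen with earlier results of these data known. Named besides were the 4 most counted genes of each list, less 1 that is not reported here, and the 2 rows nearest each gene, with KCNQ1 and AQP4 added after their values were seen. The planned motif and protein comparison was not run. All 10 symbols matched RefSeq. R 4.3.3 ran limma 3.58.1 and edgeR 4.0.16, and Python 3.11.15 ran scipy 1.17.1, numpy 2.4.6, matplotlib 3.10.9 and pandas 2.3.3.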

Additional observations from a re-analysis of the deposited data

Results flagged for a closer look

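In a comparison with the same intestine library, 1 of the 10 genes and 6 further named genes were above intestine at 1 passage and below it at the other, with both intervals clear of 0. The difference between the passages was not tested, since each has 1 library. For GUCY2C the log2 differences from intestine were 1.02 at P5 and -1.09 at P10. PDZK1, the brush border scaffold, had 1.53 and -2.32, and PRKG2, the kinase below GUCY2C, 0.66 and -1.92. SLC26A2, the sulfate exchanger, had 0.62 and -0.84. ATP1B1, a beta subunit of the sodium pump, had 0.34 and -0.52. SLC9A3R1, the scaffold, had 0.52 and -0.25, and its second value turned to 0.02 with library totals. CA9 alone went the other way, with -0.64 and 0.82. Set against the summed epithelial reads, each of these genes lay below intestine at both passages, so none changed sign on that scale. The median of all rows there was -2.27 at P5 and -2.16 at P10. This depends on the epithelial genes used. The CPM ratio of GUCY2C to intestine was 2.34 at P5, above the 2.08 of VIL1, and 0.575 at P10, below its 1.20. Set against VIL1 alone, GUCY2C would thus still change sign.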

How the results depend on the processing

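Scaling decided more than any other choice. Epithelial reads as the scale moved the median of all rows by -2.38 at P5 and -2.27 at P10 against intestine, a shift that the next counts contain. On it the genes at least 2-fold higher than intestine became 2 at P5 and 2 at P10, and those lower at P5 became 6. On that scale log2 differences from intestine turned for CFTR (-0.18 in P5, -0.29 in P10), SLC26A6 (-0.39) and GUCY2C (-1.15) in P5, and SLC12A2 (-0.59) in P10. The genes lower in intestine than in muscle became 1 with library totals, with or without RN18S1, and SLC26A3 turned to 0.10 with RN18S1. The genes lower in P10 organoids than in muscle became 0 under both of these scalings and 2 with TMM or upper-quartile normalisation. Both row filters and the sum by symbol left all 60 differences of single genes within their intervals, as did a pseudocount of 0.1 for 54 and of 5 for 57. Of the 60, TMM and upper quartile each kept 49, library totals 18 and those without RN18S1 24, and epithelial reads kept 5 of 30. No paired analysis was possible because each condition has 1 library, and none could be left out in turn. Depth limits GUCA2B in P10 organoids (8 reads), SLC9A3 in muscle (7 reads) and SLC13A1 in intestine (1 read).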
